A study of Homo sapiens with 9 samples.

Results

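The G1 regulators examined were 10 genes that control the passage of a cell from G1 into S phase: the D-type cyclins CCND1 and CCND3, their kinases CDK4 and CDK6, the kinase CDK2 with its cyclins CCNE1 and CCNE2, the transcription factor E2F1, the retinoblastoma gene RB1 and the CDK inhibitor gene CDKN1B. They were taken from the deposited count table by Ensembl gene, and all 10 were found among its 24344 genes. Transcript levels were measured in MDA-MB-231, a widely used line of human breast adenocarcinoma cells that serves as a model of triple-negative disease. Cells were treated for 48 h with 1 of 3 injections, and each treatment had 3 libraries. Compound Kushen Injection (CKI), which is made from the herbs Kushen and Baituling, was used at 2.0 mg/mL of total alkaloids, and injections of Kushen alone and of Baituling alone, made by the same process, were diluted to match it. All groups thus share the cell line, the medium and the time. By the paper's chromatography, Kushen supplied most of the major compounds of CKI, while the Baituling injection showed few compounds. Untreated libraries were not analysed here, so every difference is between treatments. Nothing in the sources states that the libraries of a group came from separate cultures, and p-values then measure the spread between these libraries, which may be technical.

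In G1, D-type cyclins bind CDK4 or CDK6 and these kinases phosphorylate the retinoblastoma protein RB, which otherwise holds E2F factors in check. Once RB is phosphorylated, E2F factors switch on genes for DNA synthesis together with the E-type cyclins, which activate CDK2 and add to the phosphorylation of RB. The protein p27, encoded by CDKN1B, binds and blocks cyclin E with CDK2. CCND1 is a known driver gene of breast cancer, and inhibitors of CDK4 and CDK6 are used to treat that disease. Much of this control acts on proteins, by phosphorylation and degradation, which transcript counts do not measure.

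The total count of a library was 20144628 to 23782071. The cell line was checked by its markers: VIM, EGFR, CD44 and CAV1 had 166.0 to 1869 CPM (counts scaled to a common library size, here the library total), ESR1 and PGR had 0 to 4 counts, and CDH1 had 11 to 51 counts. GATA3, which was expected to be low, had 196 to 453 counts and was not absent. Of the markers of other cell types, PTPRC had 0 to 9 counts, CD3E 0 to 4 and LYZ 1 to 13. Below, CPM is given on library sizes scaled by TMM, a method that assumes most genes do not change. A gene passed when its adjusted p was under 0.05 in edgeR's quasi-likelihood test over the 14195 genes that had enough counts, and it was called when its log2 fold change also lay above 1 or below -1. All 10 regulators were among the genes tested. The 3 comparisons share libraries, so a gene's values in them are not independent.

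Regulatory sequence is shown for 2 of the regulators whose promoters hold a match to a motif searched here, the E2F motif or the E-box. Promoter windows (RefSeq, assembly GRCh38.p14) run from 250 bases before to 50 bases after the start site and were at hand for 7 of the 10 genes. The E2F motif was searched as TTTCCCGC, TTTCGCGC, TTTGCCGC or TTTGGCGC, and the E-box, which MYC and other basic helix-loop-helix factors bind, as CACGTG, on both strands. A match is a description of the letters and not evidence of binding. The E2F1 window lies at chr20:33686336-33686635 on the minus strand and holds 2 separate E2F matches, shown in capitals, 33 bases (on the opposite strand) and 20 bases before the start site. The CDK4 window lies at chr12:57752261-57752560 on the minus strand and holds 3 E-boxes, shown in capitals, 216, 196 and 101 bases before the start site.
E2F1: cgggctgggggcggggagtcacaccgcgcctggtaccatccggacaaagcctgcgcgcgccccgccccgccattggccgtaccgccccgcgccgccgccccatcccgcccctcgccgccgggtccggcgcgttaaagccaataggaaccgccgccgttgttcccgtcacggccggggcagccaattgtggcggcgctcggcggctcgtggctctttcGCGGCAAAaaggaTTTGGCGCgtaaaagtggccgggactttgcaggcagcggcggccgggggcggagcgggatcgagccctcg
CDK4: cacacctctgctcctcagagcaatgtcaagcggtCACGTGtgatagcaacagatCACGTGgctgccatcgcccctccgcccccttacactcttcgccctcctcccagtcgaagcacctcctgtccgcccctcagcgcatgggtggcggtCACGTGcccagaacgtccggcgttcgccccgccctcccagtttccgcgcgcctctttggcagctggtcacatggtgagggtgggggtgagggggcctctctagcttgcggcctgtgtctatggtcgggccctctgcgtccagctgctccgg

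Of all 35114 windows of this length, 3.31% hold an E2F match and 7.26% hold an E-box. Among the 7 regulators with a window, E2F1 was the single gene with an E2F match, and CDK4 and CDK6 had an E-box, where 6.43% and 12.1% of the 11244 tested genes with a window have a match in at least 1 of theirs. The study also measured CCND1 by quantitative PCR with a primer pair in its first exon, within the coding sequence (build GRCh37). The primers are shown because they mark the part of the transcript that the study assayed. The forward primer lies at chr11:69456101-69456120 and the reverse primer, shown on the opposite strand, at chr11:69456214-69456235, which gives a product of 135 bases.
CCND1 forward: gctgcgaagtggaaaccatc
CCND1 reverse: cctccttctgcacacatttgaa

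The levels of the regulators were ordered per kilobase of each gene's canonical transcript, since a longer transcript yields more reads. The D-type cyclins CCND1 and CCND3 stood far above the other regulators in every treatment. CCND2, a D-type cyclin not among these regulators, had 1.082 CPM per kb in CKI, 1.415 in Kushen and 1.473 in Baituling. In CKI, CCND3 had 175.7 ± 4.64 CPM per kb and CCND1 108 ± 1.04 (SD, n = 3). In Baituling this order was turned, with CCND1 at 188.0 ± 7.67 and CCND3 at 160.5 ± 6.87 CPM per kb, and in Kushen CCND3 at 172 ± 10.6 lay above CCND1 at 149 ± 3.25. The libraries of these neighbours did not overlap in any treatment. E2F1 came next, with 34.3 CPM per kb in CKI, 37.9 in Kushen and 53.8 in Baituling. CDKN1B followed E2F1 directly in CKI (26.9 CPM per kb), lay below CDK4 (28.2) in Kushen (22.8) and lay below both CDK4 (40.4) and CDK2 (32.1) in Baituling (22.1). RB1 came after these in every treatment, at 9.99 to 12.8 CPM per kb. CCNE1, CDK6 and CCNE2 were the lowest, with CCNE2 last at 1.78 CPM per kb in CKI, 2.49 in Kushen and 3.17 in Baituling. Only CCNE1 and CDK6 in Baituling were neighbours whose libraries overlapped. The places of CDK4 and CCNE2 are uncertain, since 57.8% and 56.9% of their exonic bases are shared with a gene on the opposite strand. The order also rests on the canonical lengths, 4.238 kb for CCND1 and 2.026 kb for CCND3. Without that scaling CCND1 lay above CCND3 in CKI too (456.0 and 356.1 CPM). The low place of CDK6 also rests on its length, 11.663 kb. Its unscaled level in CKI, 56.19 CPM, lay above RB1 (48.76), CDK4 (42.39) and CDK2 (38.29), and far above CCNE1 (10.53).

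**Figure D1:**
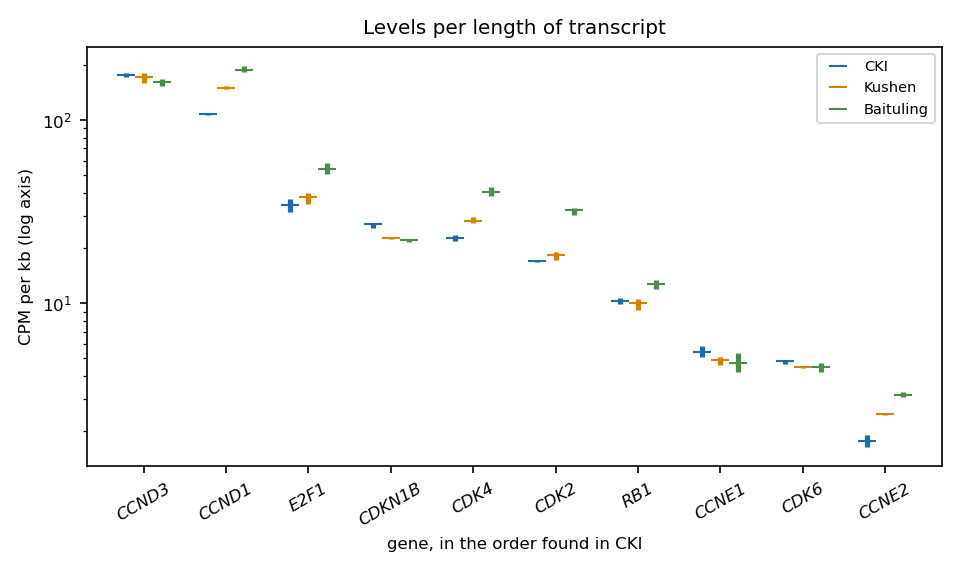
Level of each G1 regulator in CPM per kb of canonical transcript (y, log axis) for 10 genes (x, in the order found in CKI); dashes are means of 3 libraries and vertical bars run from the lowest to the highest library. CCND3 lies above CCND1 in CKI (175.7 and 108) and below it in Baituling (160.5 and 188.0).

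The comparison of CKI with Kushen asked what Baituling adds to Kushen, that of CKI with Baituling what Kushen adds, and that of Kushen with Baituling set the single herbs side by side. In CKI, CCND1, CDK4 and CCNE2 were lower and CDKN1B was higher than in either single injection. Against Baituling, both CKI and Kushen also had lower CDK2, E2F1 and RB1. CDK6 and CCNE1 passed in no comparison, and CCND3 passed only in CKI against Baituling. For CCND1, CDK4, CDK2, CCNE2 and E2F1 the mean was lowest in CKI, intermediate in Kushen and highest in Baituling. The means of CCND3, CDK6, CCNE1 and CDKN1B followed the reverse order. In RNA of whole cultures, fewer cells in a given phase of the cycle and less RNA per cell cannot be told apart.

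**Figure D2:**
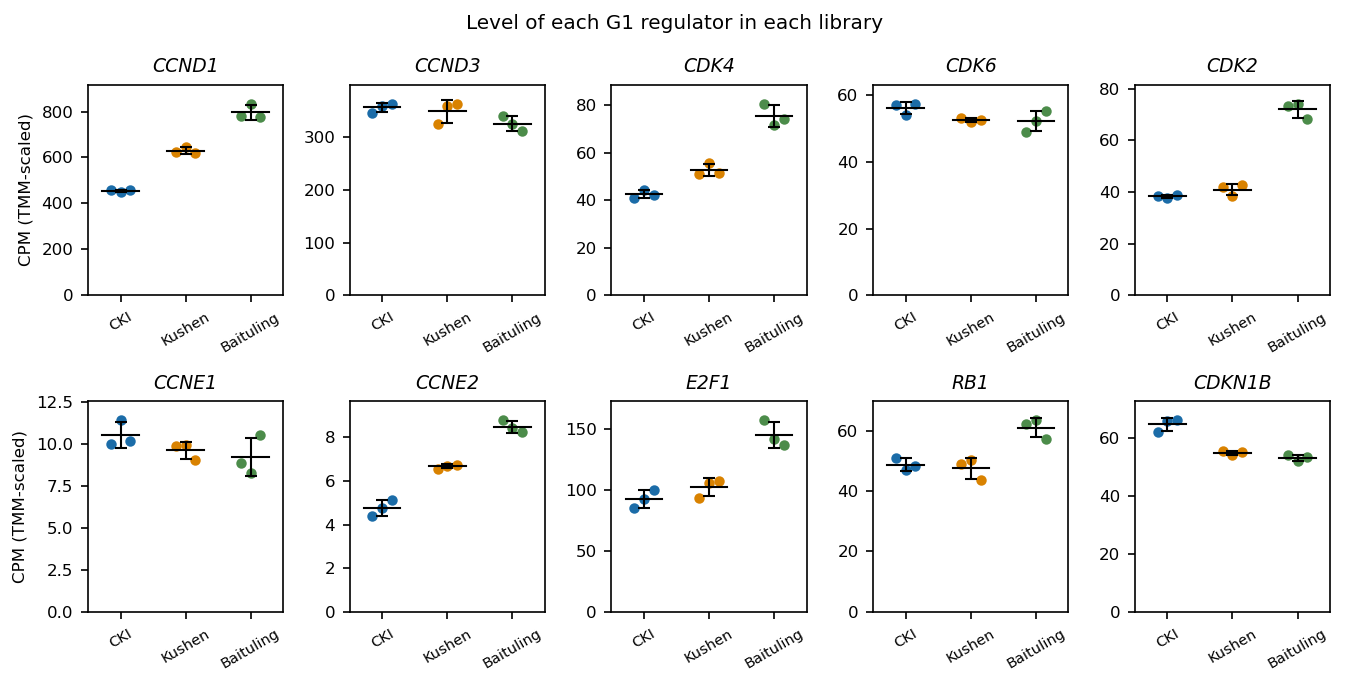
Level of each of 10 G1 regulators (y, TMM-scaled CPM, from 0) in the 3 libraries of each treatment (x); points are libraries, horizontal lines means and bars SD. CCND1 separates all 3 treatments, from 451.3 to 460.1 in CKI up to 777.0 to 834.2 in Baituling, while CDK6 stays between 49.0 and 57.4.

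In CKI against Kushen, 4 of the 10 regulators passed, 1 higher and 3 lower, beside 19.6% of all genes tested that passed as higher and 20.2% as lower. No regulator was called, as against 1.9% of all genes. The libraries of both groups did not overlap for 6 regulators, beside 49.5% of all genes. The median log2 fold change was -0.03 over the regulators and 0.01 over all genes. In CKI against Baituling 8 passed, 2 higher and 6 lower, beside 39.1% and 37.0% of all genes, and none was called, as against 19.1%. Here 8 did not overlap, beside 78.3% of all genes, and the median was -0.49 as against 0.03. In Kushen against Baituling 6 passed, 0 higher and 6 lower, beside 35.6% and 36.1% of all genes, and none was called, as against 15.2%. Here 7 did not overlap, beside 73.1%, and the median was -0.34 as against 0.02. The shares that did not overlap were thus close to those of all genes in the contrasts with Baituling, and no regulator reached the threshold on the fold change.

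**Figure D3:**
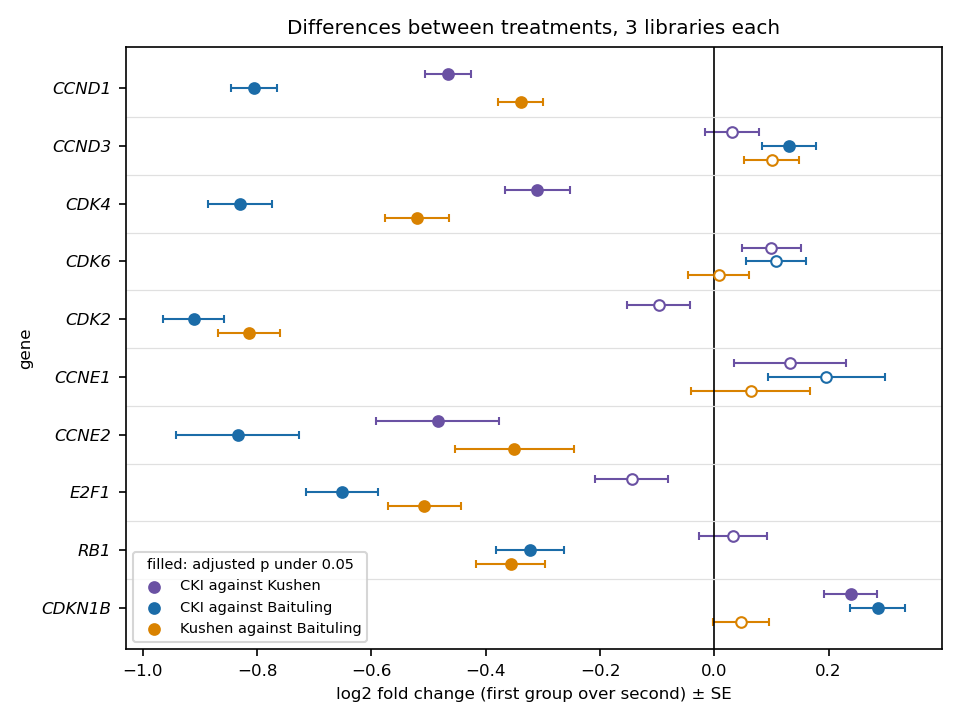
Log2 fold change of each G1 regulator (x, first treatment over second, bars SE from edgeR) for 10 genes (y) in the 3 comparisons, 3 libraries per treatment; filled points have an adjusted p under 0.05. The values lie between -0.91 (CDK2, CKI against Baituling) and 0.29 (CDKN1B, CKI against Baituling).

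The D-type cyclins CCND1 and CCND3 moved apart. CCND1 (chromosome 11, 69455924 to 69469242, plus strand, build GRCh37 for this and all gene positions below), the cyclin that activates CDK4 and CDK6, had 456.6, 451.3 and 460.1 CPM in the CKI libraries, 622.3, 645.6 and 621.4 in Kushen and 778.9, 834.2 and 777.0 in Baituling. No library of a treatment overlapped those of another, and the spread within CKI was small (456 ± 4.41 CPM, SD, n = 3). The log2 fold change of CCND1 was -0.80 ± 0.04 for CKI over Baituling (SE, edgeR adjusted p 7.03e-13), -0.47 ± 0.04 for CKI over Kushen (adjusted p 4.59e-08) and -0.34 ± 0.04 for Kushen over Baituling (adjusted p 2.94e-07). In CKI its level was thus 27.6% below that in Kushen and 42.8% below that in Baituling, by the fitted folds.

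CCND3 (chromosome 6, 41902672 to 42018095, minus strand), the other D-type cyclin expressed strongly here, had 345.4, 359.5 and 363.3 CPM in CKI, 324.0, 358.4 and 363.3 in Kushen and 339.3, 324.6 and 311.5 in Baituling. The CKI libraries lay above the Baituling libraries, while the Kushen libraries overlapped both. CCND3 was higher in CKI than in Baituling by 0.13 ± 0.05 (edgeR adjusted p 0.0183), but this was lost without CKI replicate 2, CKI replicate 3, Baituling replicate 2 or Baituling replicate 3 (adjusted p 0.0628, 0.0677, 0.0554 and 0.119). The log2 fold change was 0.03 in CKI against Kushen (adjusted p 0.641) and 0.10 in Kushen against Baituling (adjusted p 0.0674), the latter 0.15 without Kushen replicate 1 (adjusted p 0.00416) and 0.14 without Baituling replicate 1 (adjusted p 0.0174). This last comparison also passed under upper quartile scaling (adjusted p 0.0019), with at least 10 counts in every library (0.0164), with the 2 groups alone (0.0472) and with the rows as deposited (0.0384), so its side of the threshold depends on the setting.

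The kinases partnered by the D-type cyclins also moved apart, with differences in CDK4 and none that passed in CDK6. CDK4 (chromosome 12, 58141510 to 58149796, minus strand) had 40.8, 44.2 and 42.3 CPM in CKI, 50.9, 55.4 and 51.3 in Kushen and 80.5, 71.4 and 74.0 in Baituling. The treatments did not overlap, with CKI lowest and Baituling highest. Log2 fold changes were -0.83 ± 0.06 for CKI over Baituling (edgeR adjusted p 7.61e-11), -0.52 ± 0.06 for Kushen over Baituling (adjusted p 7.96e-08) and -0.31 ± 0.06 for CKI over Kushen (adjusted p 2.71e-04). CDK6 (chromosome 7, 92234235 to 92465887, minus strand), which phosphorylates RB as CDK4 does, had 57.1, 54.1 and 57.4 CPM in CKI, 53.0, 51.8 and 52.5 in Kushen and 49.0, 52.3 and 55.3 in Baituling. The CKI libraries lay just above the Kushen libraries and overlapped those of Baituling. Its log2 fold changes were 0.11 ± 0.05, 0.01 ± 0.05 and 0.10 ± 0.05 in the same order of comparisons, with adjusted p values of 0.0712, 0.902 and 0.135. In CKI against Baituling CDK6 passed without Baituling replicate 3 (0.15, adjusted p 0.0315), under upper quartile scaling (0.18, adjusted p 0.0057) and when every library had to have at least 10 counts (0.15, adjusted p 0.0147).

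CDK2 (chromosome 12, 56360565 to 56366573, plus strand), the kinase of the E-type cyclins, showed the largest difference of any regulator between CKI and Baituling. It had 38.4, 37.6 and 38.8 CPM in CKI, 41.8, 38.6 and 42.5 in Kushen and 73.5, 74.2 and 68.3 in Baituling. CKI and Kushen overlapped, and both lay far below Baituling. The log2 fold change was -0.91 ± 0.05 in CKI against Baituling (edgeR adjusted p 8.01e-12) and -0.81 ± 0.05 in Kushen against Baituling (adjusted p 5.98e-11), as against -0.10 ± 0.05 in CKI against Kushen (adjusted p 0.172).

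The E-type cyclins moved apart as the D-type cyclins did. CCNE2 (chromosome 8, 95891998 to 95908906, minus strand) was a weakly expressed gene, with 112 to 180 counts per library. It had 4.39, 4.75 and 5.13 CPM in CKI, 6.56, 6.69 and 6.74 in Kushen and 8.78, 8.44 and 8.23 in Baituling, without overlap between treatments. For CCNE2 the log2 fold change was -0.83 ± 0.11 for CKI over Baituling (edgeR adjusted p 8.51e-07), -0.35 ± 0.10 for Kushen over Baituling (adjusted p 0.00527) and -0.48 ± 0.11 for CKI over Kushen (adjusted p 0.00149). CCNE1 (chromosome 19, 30302898 to 30315219, plus strand), on 151 to 283 counts, had 10.00, 11.4 and 10.2 CPM in CKI, 9.857, 9.929 and 9.004 in Kushen and 8.83, 8.28 and 10.5 in Baituling. Baituling overlapped both other treatments, and its highest library lay within the CKI range. The log2 fold changes were 0.20 ± 0.10, 0.06 ± 0.10 and 0.13 ± 0.10 in the same order, and the adjusted p values 0.0879, 0.594 and 0.3. Without Baituling replicate 3 CCNE1 passed in CKI against Baituling (0.29, adjusted p 0.0229), as it did under upper quartile scaling (0.27, adjusted p 0.0246) and with the filter of 10 counts (0.24, adjusted p 0.042).

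E2F1 (chromosome 20, 32263283 to 32274191, minus strand), the activator that RB restrains and whose own promoter carries the E2F matches shown above, had 85.0, 92.3 and 99.3 CPM in CKI, 93.3, 105.6 and 107 in Kushen and 157, 141.1 and 136.5 in Baituling. CKI and Kushen overlapped, and Baituling lay above both. Its log2 fold change was -0.65 ± 0.06 in CKI against Baituling (edgeR adjusted p 1.6e-08) and -0.51 ± 0.06 in Kushen against Baituling (adjusted p 6.3e-07). In CKI against Kushen it was -0.14 ± 0.06 (adjusted p 0.0793), but the adjusted p was 0.0284 without CKI replicate 3 and 0.00876 without Kushen replicate 1.

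RB1 (chromosome 13, 48877880 to 49173572, plus strand), the brake on E2F, had 51.03, 47.02 and 48.22 CPM in CKI, 48.8, 50.3 and 43.7 in Kushen and 62.1, 63.5 and 57.4 in Baituling. CKI and Kushen overlapped, and Baituling lay above both, so RB1 and E2F1 were lower together. The log2 fold change was -0.32 ± 0.06 in CKI against Baituling (edgeR adjusted p 6.58e-05), -0.36 ± 0.06 in Kushen against Baituling (adjusted p 2.58e-05) and 0.03 ± 0.06 in CKI against Kushen (adjusted p 0.687). On the scale of library totals the first of these was -0.04 (adjusted p 0.602).

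CDKN1B (chromosome 12, 12838432 to 12875303, plus strand), which encodes the inhibitor p27, had 62.2, 66.1 and 66.3 CPM in CKI, 55.5, 54.2 and 55.2 in Kushen and 54.1, 52.1 and 53.4 in Baituling. All CKI libraries lay above all others, and the lowest Kushen library lay just above the highest Baituling library. For CDKN1B it was 0.24 ± 0.05 on the log2 scale for CKI over Kushen (edgeR adjusted p 4.94e-04), 0.29 ± 0.05 for CKI over Baituling (adjusted p 2.28e-05) and 0.05 ± 0.05 for Kushen over Baituling (adjusted p 0.396).

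The scale bears on these directions, because TMM and library totals differ for Baituling. Under library totals the median of all genes rose on the log2 scale by 0.29 for CKI over Baituling, 0.21 for Kushen over Baituling and 0.08 for CKI over Kushen. The share of passing genes that were higher went from 51.4% to 71.6%, from 49.6% to 67.3% and from 49.2% to 69.7% in the same order. On that scale CCND1, CDK4, CDK2, CCNE2 and E2F1 were still lower in CKI than in Baituling (log2 fold changes of -0.52, -0.54, -0.62, -0.55 and -0.37), and CDK6 and CCNE1 passed as higher (0.39 and 0.48). CCND3 and CDKN1B were higher by more (0.42 and 0.57) than under TMM. In Kushen against Baituling CCND3, CDK6, CCNE1 and CDKN1B then passed as higher (0.31, 0.22, 0.28 and 0.26), and CCNE2 did not pass (-0.14, adjusted p 0.234). CCND1, CDK4, RB1 and E2F1 still passed there as lower, by smaller log2 fold changes of -0.13, -0.31, -0.14 and -0.30, as did CDK2 at -0.60. In CKI against Kushen 6 regulators passed in place of 4, since CCND3 (0.11, adjusted p 0.0425) and CDK6 (0.18, adjusted p 0.0151) came to pass as higher. Under upper quartile scaling, or when every library had to have at least 10 counts, all 10 regulators passed in CKI against Baituling. Most genes passed in that contrast already under TMM with the default filter (10802 of all 14195), while 5652 passed in CKI against Kushen.

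Ratios of 2 regulators within a library do not depend on this scale. The log2 ratio of CCND1 to CCND3 counts was 0.40, 0.33 and 0.34 in CKI, 0.94, 0.85 and 0.77 in Kushen and 1.199, 1.362 and 1.319 in Baituling, so the treatments stood apart. The ratio of CDK6 to CDK4 was 0.49, 0.29 and 0.44 in CKI, 0.06, -0.10 and 0.03 in Kushen and -0.72, -0.45 and -0.42 in Baituling. CKI libraries thus held more CDK6 than CDK4 reads and Baituling libraries fewer, although the transcripts differ in length.

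The ratio of CCNE2 to CCNE1 was -1.19, -1.26 and -0.99 in CKI, -0.59, -0.57 and -0.42 in Kushen and -0.01, 0.03 and -0.35 in Baituling. That of CCND1 to CDKN1B, the cyclin over the inhibitor, averaged 2.81 ± 0.05 (SD, n = 3) in CKI, 3.52 ± 0.05 in Kushen and 3.90 ± 0.09 in Baituling, a difference of -1.09 between CKI and Baituling. These 4 ratios did not overlap in any comparison, and each two-sided exact permutation test gave p = 0.1, the smallest value that 3 libraries against 3 allow, which cannot pass 0.05. With 15 such tests no adjusted value could be lower. The ratio of E2F1 to RB1 averaged 0.92 ± 0.16 in CKI, 1.099 ± 0.181 in Kushen and 1.25 ± 0.09 in Baituling. This ratio overlapped between CKI and Kushen (exact permutation p = 0.4) and between Kushen and Baituling (exact permutation p = 0.3), but not between CKI and Baituling, where the difference was -0.33 (exact permutation p = 0.1).

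**Figure D4:**
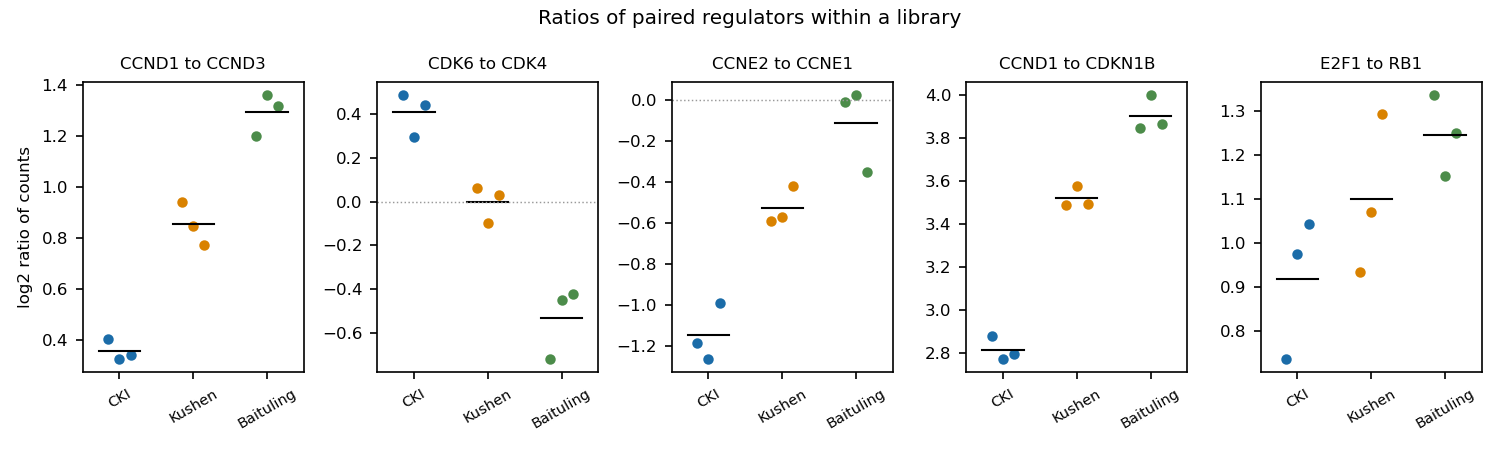
Log2 ratio of the counts of paired G1 regulators (y) in the 3 libraries of each treatment (x), 1 panel per ratio; points are libraries and lines means, and the axes do not start at 0. CCND1 to CDKN1B averages 2.81 in CKI and 3.90 in Baituling, and the CDK6 to CDK4 ratio runs the other way, from 0.41 to -0.53.

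Several regulators share exonic bases with a gene on the opposite strand, and the libraries were unstranded, so reads there cannot be told apart. CDK4 shares 57.8% of the exonic bases of its canonical transcript with TSPAN31 and CCNE2 shares 56.9% with INTS8, so the values of these 2 genes are uncertain. Both partners were higher in Kushen than in Baituling, by log2 fold changes of 0.49 for TSPAN31 and 1.12 for INTS8. They were also higher in CKI than in Baituling, by 0.26 and 1.26, while CDK4 and CCNE2 were lower in both contrasts. In CKI against Kushen TSPAN31 was lower (-0.23), as was CDK4 (-0.31). INTS8 was higher there (0.15) and CCNE2 lower (-0.48). How far reads of the partners enter the values of CDK4 and CCNE2 was not tested. The share was 11.7% for CCND1 with LTO1, 4.0% for CDK2 with PMEL and 12.8% for CDK2 with a long noncoding RNA, and 0.7% for CDK6 with CDK6-AS1. CCND3, CCNE1, E2F1, RB1 and CDKN1B shared no exonic base.

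The genes whose profile over the 9 libraries lay nearest to each regulator were found by the root mean square difference of centred log2 CPM, among 10057 other genes of sufficient level (10058 for CCNE2). For CCND1 these were NIPSNAP2 (0.04) and MSN (0.04), and for CDK4 TUBB4B (0.05) and CCDC149 (0.05). For CDK2 they were DTNBP1 (0.04) and XBP1 (0.05), for CCNE2 TSPAN15 (0.05) and MSN (0.05), and for E2F1 CYC1 (0.04) and CD320 (0.04). CCND3 lay nearest to PC, CDK6 to CHD8 and CIR1, CCNE1 to EYA3 and IGF2BP3, RB1 to DYNC1LI1 and FCF1, and CDKN1B to IWS1 and SMAP2, at 0.03 to 0.07. The median difference over all candidates was 0.22 to 0.41.

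Other genes of the circuit were followed in 3 lists. Of 22 other G1/S regulators (further cyclins, CDK inhibitors, RB relatives, E2F and DP factors and the CDK-activating kinase) 20 were tested. CDKN2B had no count in any library and CDKN2A, the gene of the INK4 inhibitor p16, had 0 to 1, which left both untested. For CKI over Kushen 5 were higher and 4 lower, beside 19.6% and 20.2% of all genes, with a median of 0.02. For CKI over Baituling 5 were higher and 14 lower (median -0.32), and for Kushen over Baituling 3 were higher and 11 lower (median -0.30), where 39.1% and 37.0% of all genes, and 35.6% and 36.1%, passed as higher and lower. Under library totals the medians were -0.03 and -0.09 in the contrasts with Baituling, with 7 higher and 8 lower, and 8 higher and 9 lower.

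CDK inhibitors did not move as a group. CDKN1A, which encodes p21, had 352.2, 373.1 and 378.1 CPM in CKI, 208.4, 233.6 and 227.9 in Kushen and 223.4, 223.3 and 221.8 in Baituling. CKI lay above either single injection by 0.72 ± 0.05 (edgeR adjusted p 6.97e-10 against Kushen and 2.65e-11 against Baituling), as CDKN1B was by a smaller amount. The INK4 inhibitor gene CDKN2C, which acts on CDK4 and CDK6, was lower than in Baituling by -1.23 ± 0.06 in CKI and -1.37 ± 0.06 in Kushen, and CDKN1C, which encodes p57, by -1.27 ± 0.10 and -1.26 ± 0.10.

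Among the E2F family and its partners, E2F8, a repressor, was lower than in Baituling by -1.71 ± 0.11 in CKI and -1.91 ± 0.11 in Kushen, on 86 to 323 counts. E2F2, an activator like E2F1, was lower by -1.85 ± 0.15 and -1.74 ± 0.15 on 47 to 173 counts. CDKN1C, CDKN2C, E2F2 and E2F8 were the 4 genes of this list that were called, all of them in both contrasts with Baituling, and CDKN1C and E2F2 were named after their values were seen. These 4 of 20 stand beside 19.1% of all genes called for CKI over Baituling and 15.2% for Kushen over Baituling, so the number called is near that of all genes. TFDP1, the dimer partner of E2F factors, passed as lower in CKI than Kushen (-0.21), in CKI than Baituling (-0.80) and in Kushen than Baituling (-0.58). E2F7, a repressor like E2F8, was higher instead in the same 3 comparisons (0.15, 0.54 and 0.39). RBL2, the RB relative p130, ran in an order of its own, with 17.6 to 19.4 CPM in Baituling, 24.01 to 25.89 in CKI and 32.2 to 35.4 in Kushen. RBL2 passed in all 3 comparisons (-0.44, 0.43 and 0.87 in the order CKI over Kushen, CKI over Baituling, Kushen over Baituling).

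Of 14 genes for the turnover of G1 regulators, 3 were higher and 8 lower for CKI over Baituling, 2 higher and 8 lower for Kushen over Baituling and 2 higher and 2 lower for CKI over Kushen, with medians of -0.23, -0.23 and -0.04. Under library totals the median for CKI over Baituling turned to 0.06, with 7 higher and 5 lower, that for Kushen over Baituling was -0.02, with 6 higher and 5 lower, and that for CKI over Kushen turned to 0.03, with 3 higher and 1 lower. Over all genes 39.1% passed as higher and 37.0% as lower for CKI over Baituling, and 35.6% and 36.1% for Kushen over Baituling. The shares for CKI over Kushen were 19.6% and 20.2%. SKP2, the F-box protein that marks p27 for degradation, had 12.8, 13.9 and 13.7 CPM in CKI, 13.0, 17.4 and 13.6 in Kushen and 29.6, 29.1 and 29.3 in Baituling. It was lower than in Baituling by -1.12 ± 0.09 in CKI (edgeR adjusted p 6.82e-10) and -0.997 ± 0.088 in Kushen (adjusted p 4.83e-09). CKS1B, its cofactor for p27, was lower by -1.20 ± 0.05 and -0.97 ± 0.05. FZR1, an activator of the anaphase-promoting complex in G1, was lower by -0.55 ± 0.05 and -0.67 ± 0.05. FBXO4 was called with SKP2 and CKS1B in CKI against Baituling (-1.02 ± 0.17), on 47 to 106 counts, and was named after its values were seen. These 3 of 14 stand beside 19.1% of all genes called.

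E2F target genes had the lowest medians of the lists in all 3 comparisons. Of 24 listed, 23 were in the table and tested. In CKI against Baituling all 23 were lower and 14 of them called (median -1.18), and in Kushen against Baituling 21 were lower and 13 called (median -1.11), beside 37.0% of all genes lower and 19.1% called in the former and 36.1% and 15.2% in the latter, while the log2 fold change of E2F1 itself was -0.65 and -0.51. In CKI against Kushen 17 were lower and 1 was higher, beside 20.2% and 19.6% of all genes. The median was -0.24 and none was called, as against 1.9% of all genes. Under library totals 21, 20 and 14 were lower in the same order, with 0, 1 and 1 higher. When the test was set against a 1.2-fold change, 1 target was lower in CKI against Kushen.

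MYBL2, a transcription factor of the S and G2 programme, had 29.2, 33.8 and 34.3 CPM in CKI, 37.5, 37.4 and 39.5 in Kushen and 145.8, 135.6 and 136.4 in Baituling. Its log2 fold change was -2.10 ± 0.06 in CKI against Baituling (edgeR adjusted p 1.06e-16), -1.87 ± 0.06 in Kushen against Baituling and -0.23 ± 0.06 in CKI against Kushen (adjusted p 0.00517). CCNA2, the cyclin that follows cyclin E as partner of CDK2, ran from 135.7 to 141.0 CPM in Baituling, 46.0 to 51.7 in Kushen and 38.9 to 40.4 in CKI, with log2 fold changes of -1.80 ± 0.05, -1.48 ± 0.05 and -0.32 ± 0.05 in the order given for MYBL2. MCM7, a subunit of the replicative helicase, was lower than in Baituling by -1.67 ± 0.05 in CKI and -1.63 ± 0.05 in Kushen, and was -0.04 in CKI against Kushen (adjusted p 0.544). EZH2, a histone methyltransferase, was the 1 target higher in CKI than in Kushen (0.25 ± 0.05, adjusted p 5.4e-04), while it was lower in CKI than in Baituling (-0.87 ± 0.05), and it was named after its values were seen. CCNA2 and MCM7 overlap a protein-coding gene on the opposite strand, as do SKP2, FZR1 and RBL2. CDKN1A, CDKN2C, E2F8 and EZH2 overlap a noncoding one. The exonic share was not worked out for these genes. Of the 20 tested targets with a promoter window, 11 held an E2F match in at least 1 window, as against 6.43% of the 11244 tested genes with a window. The list was chosen as E2F targets, so this share is a description. Over all 723 tested genes with an E2F match the median was -0.095 for CKI over Baituling, -0.086 for Kushen over Baituling and -0.004 for CKI over Kushen. All tested genes with a window had 0.023, 0.009 and 0.007.

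**Figure D5:**
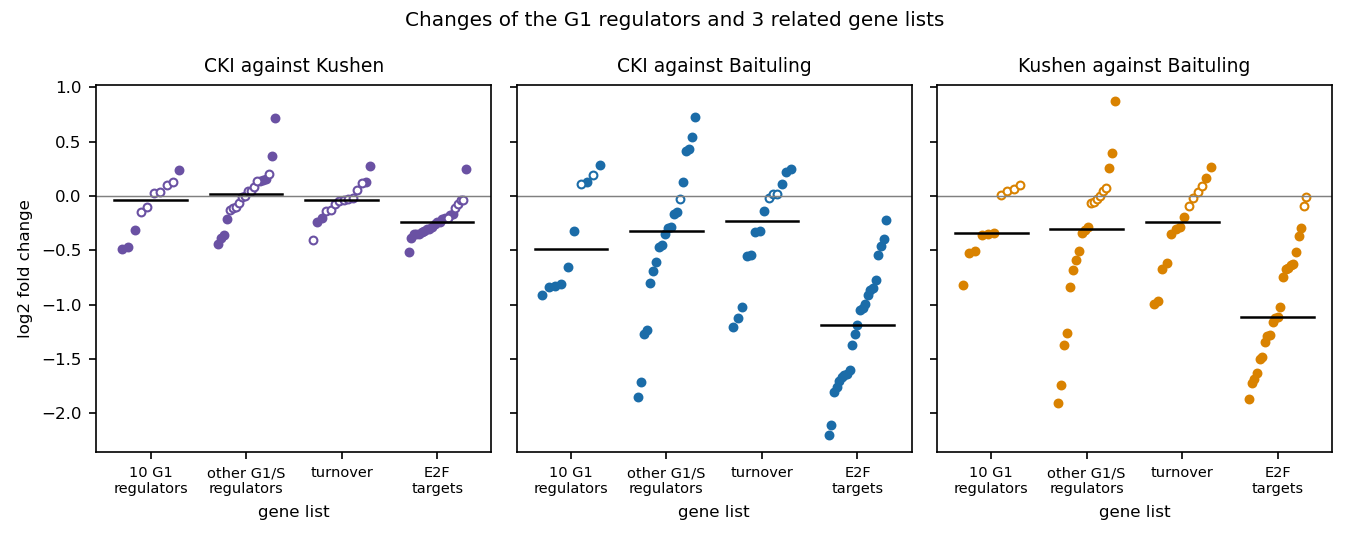
Log2 fold change (y) of each tested gene of 4 lists (x) in the 3 comparisons; points are genes in order of value, filled where the adjusted p is under 0.05, and lines are medians. In the contrasts with Baituling the medians of E2F targets are -1.18 and -1.11, below those of the 10 G1 regulators at -0.49 and -0.34.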

How the data were processed

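RNA of 9 libraries was sequenced as unstranded read pairs. Per the methods and the submitters' processing notes, the authors trimmed reads with Trim Galore 0.3.7, aligned them with STAR 2.5.3a to hg19 and deposited raw counts per gene without normalization; the counting program and annotation are not given in the sources used here. Libraries were assigned to groups by their titles. The table held 24566 rows, of which 222 repeated an Ensembl gene and were dropped. GENCODE v44lift37 on GRCh37, the same assembly as hg19, named 24224 genes, and RefSeq another 99.

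In R 4.3.3, edgeR 4.0.16 kept 14195 genes (filterByExpr, minimum count 10, minimum total 15), scaled libraries by TMM and fitted all 9 libraries in 1 quasi-likelihood model with treatment as its only term, as the study also used edgeR. P-values were two-sided and Benjamini-Hochberg adjusted over all genes tested. The script was tested on simulated data. Alternatives were DESeq2 1.42.0 size factors and Wald test, library totals, upper quartile scaling, other filters, the groups compared alone, a replicate block, the rows as deposited, glmTreat and leaving out each library. Ratios of 2 regulators were compared by an exact permutation test over libraries. Replicates of a group differed by a chi-square per gene of 1.70 to 6.85, so none agreed within sampling noise. The common biological coefficient of variation was 4.53%.

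The G1 regulators and the 3 further lists were chosen with earlier results of these data known, so counts over them are descriptions. Named were all 10 regulators, the 3 genes of each further list with the smallest adjusted p in any comparison, pathway genes from a fixed set, and the 2 genes nearest in profile to each regulator where the mean log2 CPM was at least 3. Of the genes nearest in profile, 1 is not reported here.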

Additional observations from a re-analysis of the deposited data

How the results depend on the processing

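The 10 regulators were compared in 3 contrasts under each alternative, which gave 480 fold changes, of which 437 kept their direction and their side of the threshold. Another 24 came to pass, 13 ceased to pass and 6 changed sign, all 6 of them below the threshold in both settings. With glmTreat against a 1.2-fold change, 1 regulator passed in CKI against Kushen (CCND1), with 1190 of all genes, 2 other G1/S regulators, 0 turnover genes and 1 E2F target; 5 regulators and 5 turnover genes passed in CKI against Baituling, and 5 turnover genes in Kushen against Baituling. Requiring at least 10 counts in every library left 102, 1808 and 1415 genes called in CKI against Kushen, CKI against Baituling and Kushen against Baituling, where the default filter gave 270, 2715 and 2162. Under library totals 69.7%, 71.6% and 67.3% of passing genes were higher, and MCM7 and CDKN1C reversed in CKI against Kushen to 0.037 and 0.066. Of these settings, glmTreat sets a harder null and the filter tests fewer genes. Library totals shift the log2 fold changes, by a median of 0.075 in CKI against Kushen. Any other cause of these changes was not tested.

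Leaving out 1 library at a time reversed small differences that did not pass. In CKI against Kushen these ran from -0.021 to 0.052 for CCND3, from -0.035 to 0.073 for RB1, from -0.211 to 0.016 for SKP2 and from -0.128 to 0.108 for CDKN1C, and in Kushen against Baituling from -0.028 to 0.047 for CDK6, from -0.007 to 0.162 for CCNE1 and from -0.032 to 0.05 for CDKN1A. No difference of a ratio moved by more than the spread between libraries. Same-numbered libraries of different groups deviated together with a correlation of -0.07 to 0.12, and 2 of 9 libraries correlated best with their own number. No pairing by number was thus seen, though so few libraries cannot exclude one. With a replicate block 4, 8 and 6 regulators passed, as without it, and 5356, 10656 and 10043 of all genes. Depth limits CCNE1 and CCNE2, with 112 to 283 counts per library, more than the other regulators. CDKN2A, with 0 to 1 counts per library, and CDKN2B, with no count, could not be compared, and the cause was not tested.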
